A study of Mus musculus with 12 samples.

Results

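The chemokine ligands counted in M1-like mouse macrophages are described here together with a pair of genes that overlap chemokine genes on the opposite strand. The 9 gene symbols were fixed by name, with earlier results of these data known, out of 24552 symbols in the count table. They were Cxcl9, Cxcl10, Cxcl16, Ccl2, Ccl3, Ccl4 and Ccl5 with the neighbours Art3 (of Cxcl10) and Zmynd15 (of Cxcl16). All 9 were in the table. Of these, 6 passed the filter on low counts and could be tested (Cxcl9, Cxcl10, Cxcl16, Zmynd15, Ccl3 and Ccl5), Ccl2 and Ccl4 had too few counts, and Art3 had no count in any library.

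The RNA came from bone marrow-derived macrophages, which are cells grown from mouse bone marrow in the growth factor M-CSF (10 ng/ml, 6 days). Cells were given vehicle (DMSO) or 50 nM ISRIB, a small molecule that counters the integrated stress response through the translation initiation factor eIF2B, and were then left as M0 or driven to an M1-like state. The M1 stimulus was LPS at 10 ng/ml with IFN-γ at 25 ng/ml for 16 h, after 1 h of vehicle or ISRIB alone, and vehicle or ISRIB stayed present. The 4 groups, with 3 biological replicates each, were M0 and M1 cells given vehicle and M0 and M1 cells given ISRIB. Strain, sex and age of the mice, any genetic change, whether animals were pooled, and what M0 cells received during the 16 h are not given in the labels. The labels call the samples biological replicates without naming animals or cultures, so the p-values below measure the spread between these samples.

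Chemokines are small secreted proteins that guide leukocytes by binding receptors coupled to G proteins. They are classed by the spacing of conserved cysteines near the N-terminus, with CC ligands (here Ccl2 to Ccl5) and CXC ligands (here Cxcl9, Cxcl10 and Cxcl16). In macrophages LPS acts through Toll-like receptor 4 and the transcription factors NF-κB and AP-1, and through interferon-β, while IFN-γ acts through its own receptor and JAK kinases, and these routes meet at the promoters of genes such as Cxcl9 and Cxcl10. Cxcl9 and Cxcl10 are ligands of the receptor Cxcr3 on activated T cells and NK cells, Cxcl16 is a membrane-bound ligand of Cxcr6 that is also shed and takes up oxidized lipoprotein, Ccl2 is the main ligand of Ccr2 on monocytes, Ccl3 and Ccl5 act on Ccr1 among other receptors, and Ccl4 is a close relative of Ccl3.

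Upstream sequence is shown for the 3 chemokine genes of the list with an entry in RefSeq's promoter windows (build GRCm38.p6), since they differ in how their counts behaved between M0 and M1. Each is the 250 bases before the annotated start, read 5′ to 3′ on the gene's own strand, which is the minus strand for all of them. Capitals mark matches, on either strand, to an interferon-stimulated response element (GAAA and GAAA with NN between them), to the κB sequences bound by NF-κB (GGGANTTCC, or GGGA and TTCC with NN between them), to a gamma-activated site (TTCNNNGAA), or to an AP-1 site (TGANTCA). The motifs were chosen after the sequences were seen, and no matches of different motifs overlapped in the windows printed. Cxcl9 (chr5:92328080-92328329), Cxcl10 (chr5:92348890-92349139) and Ccl3 (chr11:83649379-83649628) read as follows.
Cxcl9: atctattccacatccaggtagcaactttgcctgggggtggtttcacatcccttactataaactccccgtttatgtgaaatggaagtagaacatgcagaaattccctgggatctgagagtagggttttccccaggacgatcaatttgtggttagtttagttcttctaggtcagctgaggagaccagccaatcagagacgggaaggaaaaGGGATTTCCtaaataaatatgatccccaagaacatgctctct
Cxcl10: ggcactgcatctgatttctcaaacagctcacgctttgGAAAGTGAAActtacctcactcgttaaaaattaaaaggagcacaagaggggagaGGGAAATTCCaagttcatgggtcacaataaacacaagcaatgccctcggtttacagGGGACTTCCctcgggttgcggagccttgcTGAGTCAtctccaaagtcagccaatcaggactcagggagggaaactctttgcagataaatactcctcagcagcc
Ccl3: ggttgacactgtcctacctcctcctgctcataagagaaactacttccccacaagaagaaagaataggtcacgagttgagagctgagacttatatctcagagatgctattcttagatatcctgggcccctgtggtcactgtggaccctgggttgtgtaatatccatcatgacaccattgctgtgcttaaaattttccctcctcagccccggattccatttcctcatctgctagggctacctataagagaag
The Cxcl10 window held an interferon-stimulated response element 213 to 204 bases before the start, κB sequences at 159 to 150 and at 103 to 95, and an AP-1 site at 74 to 68. The Cxcl9 window held a κB sequence 42 to 34 bases before the start. The Ccl3 window held none of these letters. Over the 32851 windows of the same length in the table, 2.98% held the interferon element, 2.62% either κB sequence, 7.02% the gamma-activated site and 6.75% the AP-1 site. No motif match was found in any of the 3 Art3 windows. A match is a description of the letters, not of binding. The table gave windows for 4 of the 9 genes, and Cxcl16, Zmynd15, Ccl2, Ccl4 and Ccl5 had no entry.

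The genes lie in 3 neighbourhoods of the mm10 genome by the GENCODE M21 annotation. On chromosome 5, Cxcl9 (92321347 to 92328079, minus strand) lies 18.6 kb from Cxcl10 (92346638 to 92348889, minus strand), and Art3 (92331827 to 92414628, plus strand) spans Cxcl10 from the other strand. On chromosome 11, Cxcl16 (70453983 to 70459984, minus strand) and Zmynd15 (70459433 to 70466202, plus strand) overlap at their 5′ ends. Further along chromosome 11 are Ccl2 (82035571 to 82037453, plus), Ccl5 (83525778 to 83530518, minus), Ccl3 (83647844 to 83649355, minus) and Ccl4 (83662584 to 83664683, plus), with 13.2 kb between Ccl3 and Ccl4.

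The extent of overlap differed between the pairs. Exons of Cxcl16 and Zmynd15 shared 552 bases (chr11:70459433-70459984), which were 18.3% of the exon bases of Cxcl16 and held 15 coding bases of Cxcl16 and no coding base of Zmynd15. Exons of Cxcl10 and Art3 shared 133 bases (chr5:92346638-92346770) at the 3′ end of Cxcl10, which were 5.91% of its exon bases, untranslated in both genes and part of 1 of the 19 annotated Art3 transcripts. Cxcl9, Ccl3, Ccl4 and Ccl5 had no annotated gene on the opposite strand, and Ccl2 lay within the span of Gm17268 with no shared exon base.

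**Figure D1:**
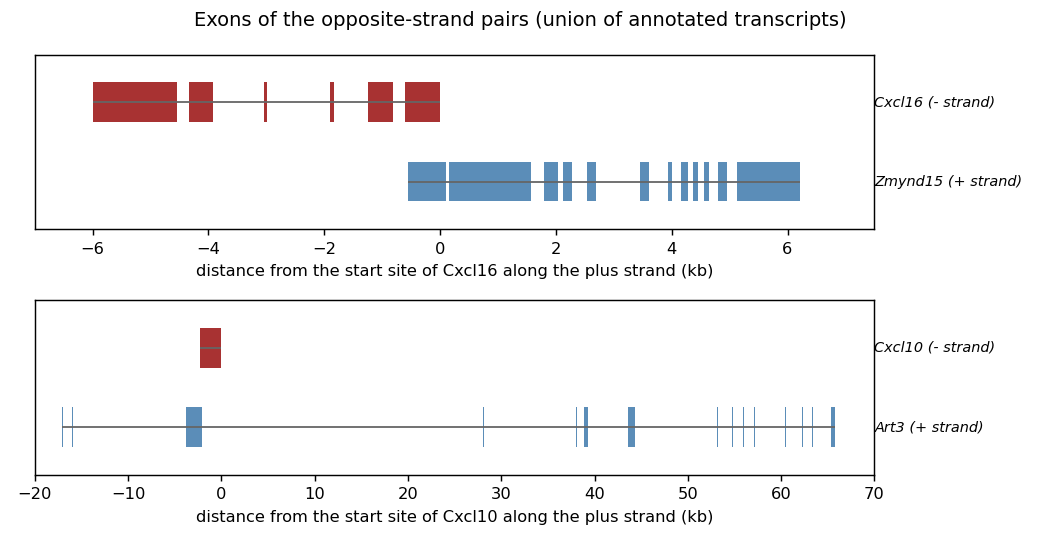
Exons (boxes) and spans (lines) of the opposite-strand pairs, with distance in kb from the start site of the chemokine gene on the x axis. Cxcl16 and Zmynd15 share 552 exon bases at their 5′ ends, while Cxcl10 meets a single Art3 exon over 133 bases at its 3′ end.

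Total counts were low, at 439976 to 514037 per library, and 1 count equalled 1.79 to 2.57 CPM (CPM being the library-size-adjusted level, with TMM factors). Libraries were strand-specific per the labels, and the strand setting of the counting is not given in the sources used here. Of counts on symbols matched to the annotation, 91.2% to 93.1% per library were on the 24.1% of symbols with an exon overlapping an exon on the opposite strand. Values below are therefore counts given to a symbol, and which strand's transcript they came from was not tested. Macrophage markers each had counts in some library (9 of 9 genes, 112 to 465 in sum per library). In M1 their sum was 112 to 264 with vehicle and 187 to 269 with ISRIB, and Mrc1 was at 0 there. By the edgeR test given below, 4 of the 7 tested were higher and 2 lower in M1 with vehicle. With ISRIB 3 were higher and 1 lower. Over all tested genes the shares were 24.3% and 20.5% with vehicle and 23.9% and 20.9% with ISRIB. T and NK cell markers (5 in the table) and stromal markers (5) had no counts, and neutrophil and B cell markers summed to at most 4 in a library. Of the 5 dendritic cell markers, the defining genes Flt3 and Zbtb46 were at 0, while the sum was 20 to 66 in M0 and 325 to 434 in M1. Xcr1 was at 21.5 and 28.5 CPM in M0 with vehicle and ISRIB and at 893 and 997 CPM in M1. Clec9a was at 34.05 and 55.1 CPM in M0 and at 0 in all M1 libraries. The part of these genes' cells in the results below was not tested.

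Cxcl9, Cxcl10 and Ccl5 rose on polarization from 0 counts, with vehicle and with ISRIB, and the Cxcl16 neighbour Zmynd15 rose as well. Cxcl16 and Ccl3 moved less, and their calls depended on the treatment or the settings, as given below. The edgeR quasi-likelihood test, adjusted by Benjamini-Hochberg over 2356 genes at a threshold of 0.05, called 5 of the 6 tested members higher in vehicle M1 than in vehicle M0 and 0 lower, where 24.3% of all tested genes were called higher and 20.5% lower. In ISRIB M1 against ISRIB M0 all 6 were called higher, against 23.9% of all tested genes higher and 20.9% lower. The scaled levels of all 6 did not overlap and were higher in M1, as were those of 27.7% of tested genes in vehicle and 28.8% in ISRIB. The fitted log2 fold changes had a median of 4.78 in vehicle and 5.42 in ISRIB, against 0.01 and -0.01 over all tested genes. With the 3 genes at 0 in M0 set to their lower bounds, the medians were 2.57 and 3.20. Since 3 of the 6 passed the filter only through their M1 counts, these counts and medians describe the tested members and do not extend to all 9. In these bulk samples a change in the share of expressing cells and a change in RNA per cell cannot be told apart.

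Counts of Cxcl9 were 112, 78 and 82 under vehicle M1, and ISRIB M1 libraries had 92, 108 and 98. All 6 M0 libraries were at 0, so the M1 and M0 groups did not overlap. Its level was 226.02 ± 47.2 CPM (SD, n = 3) in vehicle M1 and 234 ± 7.34 in ISRIB M1. Against a floor of 3 counts per M0 library, the M1 mean of Cxcl9 was higher by at least 39.9-fold under vehicle and by at least 40.5-fold under ISRIB. Folds by this floor, here and below, use the M1 mean and not the lowest M1 library. The floor takes counts as independent of each other, and the excess of even counts given at the end was not allowed for. Both rises passed the edgeR test (adjusted p 4.15e-11 and 3.73e-11).

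The vehicle M1 libraries had 22, 14 and 31 counts of Cxcl10, and the ISRIB M1 libraries had 62, 74 and 58. It was also at 0 in all 6 M0 libraries. The rise was at least 9.74-fold in vehicle and at least 26.4-fold in ISRIB by the same floor (edgeR adjusted p 6.77e-07 and 1.61e-08). Art3, a member of the ADP-ribosyltransferase family, had 0 counts in all 12 libraries, so the Cxcl10 and Art3 pair had counts on the chemokine symbol alone. A count of 0 allows a share of up to 0.000584% to 0.000682% of a library (3 counts), and such floors cover counting error only.

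Ccl5, which draws T cells and other leukocytes, had 77, 50 and 77 counts under vehicle M1, whereas ISRIB M1 libraries had 51, 112 and 61. M0 libraries were at 0 here too. Against the same floor, polarization raised it by at least 29.8-fold with vehicle and by at least 30.1-fold with ISRIB (edgeR adjusted p 2.12e-09 and 1.91e-09). The spread over the ISRIB M1 libraries was wide, at 174 ± 67.6 CPM, with replicate 2 the highest of all libraries at 251 CPM.

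Zmynd15, a gene known for its role in sperm formation, carried far more counts than any chemokine symbol and was the symbol with the 10th highest mean count in the table. M0 libraries had 4239, 3426 and 3566 counts with vehicle and 4552, 4160 and 3207 with ISRIB. M1 libraries had 10340, 10927 and 9521 counts with vehicle and 10454, 10855 and 9742 with ISRIB. All M1 libraries were above all M0 libraries. Levels were 7070 ± 872 CPM in vehicle M0 and 25622 ± 2610 in vehicle M1, which is 1.86 ± 0.13 (SE) on the log2 scale (edgeR adjusted p 4.05e-12). The rise with ISRIB was 1.67 ± 0.13 on that scale (edgeR adjusted p 3.06e-11).

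Cxcl16, the chemokine on the other strand, had 99, 84 and 77 counts in M0 with vehicle and 97, 95 and 86 with ISRIB. In M1 it had 112, 126 and 110 with vehicle and 114, 107 and 103 with ISRIB. Its scaled levels did not overlap between M0 and M1 either, at 163 ± 17.7 CPM in vehicle M0 and 289.6 ± 30.7 in vehicle M1. The rise with vehicle was 0.82 ± 0.21 on the log2 scale (edgeR adjusted p 0.00197). With ISRIB it was 0.52 ± 0.21 (edgeR adjusted p 0.0442), and this call did not hold in 11 of the 12 fits without a single library, where the adjusted p was 0.0509 to 0.163, nor without a filter on low counts (0.385). These fits tested more genes than the fit to all libraries.

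Cxcl16 took a smaller share of the pair's counts in M1 than in M0. Of Cxcl16 plus Zmynd15 counts, Cxcl16 held 2.28%, 2.39% and 2.11% in the vehicle M0 libraries and 1.07%, 1.14% and 1.14% in vehicle M1. In ISRIB the shares were 2.09%, 2.23% and 2.61% in M0 and 1.08%, 0.976% and 1.05% in M1. The M0 and M1 libraries did not overlap in either treatment, and an exact permutation test (two-sided, n = 3 per group) gave p = 0.1 in both, the smallest it can give. Exact binomial 95% intervals ran from 1.67% to 3.22% over the M0 libraries and from 0.801% to 1.37% over the M1 libraries, and they cover counting error only. As a share within a library, this value does not depend on the scaling between libraries.

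**Figure D2:**
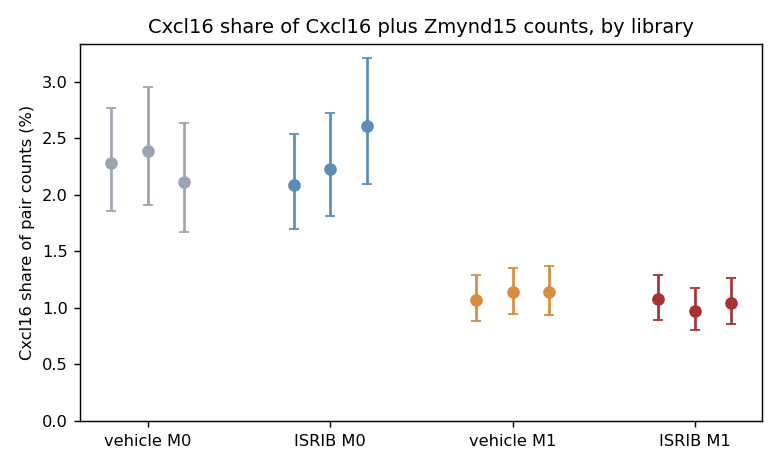
Cxcl16's share of Cxcl16 plus Zmynd15 counts in percent (y axis) for each library of the 4 groups (x axis), with exact binomial 95% intervals as bars. M0 libraries lie between 2.09% and 2.61% and M1 libraries between 0.976% and 1.14%.

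Ccl3, a ligand that attracts monocytes and T cells, had nearly level counts. They were 256, 274 and 242 in M0 with vehicle and 214, 286 and 292 with ISRIB. In M1 they were 257, 255 and 235 with vehicle and 297, 247 and 325 with ISRIB. The counts themselves overlapped between M0 and M1 in each treatment. On the scaled level M1 libraries were above M0 libraries in each treatment, at 485 ± 9.24 CPM in vehicle M0 and 621 ± 49.2 in vehicle M1. This separation of Ccl3 therefore rests on the scaling of the libraries. On the log2 scale the difference was 0.36 ± 0.15 with vehicle (edgeR adjusted p 0.0610) and 0.44 ± 0.15 with ISRIB (edgeR adjusted p 0.0207). The vehicle value passed the threshold in 6 of 11 other settings, among them DESeq2 size factors (adjusted p 0.0439), and the ISRIB value missed it without replicate 1 of ISRIB M0 (0.119), without replicate 1 or 3 of ISRIB M1 (0.0934 and 0.109) and with no filter (0.221). The difference between the treatments, tested as an interaction, was 0.09 ± 0.22 (edgeR adjusted p 0.972).

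Ccl2 and Ccl4 had few counts and were not tested with the other genes. Ccl2 had 0, 4 and 0 counts in M0 with vehicle and 0 in each library with ISRIB, then 8, 2 and 6 in M1 with vehicle and 0, 22 and 4 with ISRIB. Ccl4 had 2, 0 and 0 counts in M0 with vehicle and 0 in each library with ISRIB, then 3, 4 and 12 in M1 with vehicle and 4, 2 and 0 with ISRIB. The Ccl2 total in ISRIB M1 rested mainly on replicate 2, and the vehicle and ISRIB libraries overlapped for both genes. In a fit without a filter (10978 genes) Ccl2 was called in ISRIB M1 against ISRIB M0, with an adjusted p of 0.00706 by edgeR, and the other contrasts of Ccl2 and all of Ccl4 had adjusted p-values of 0.240 or more.

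**Figure D3:**
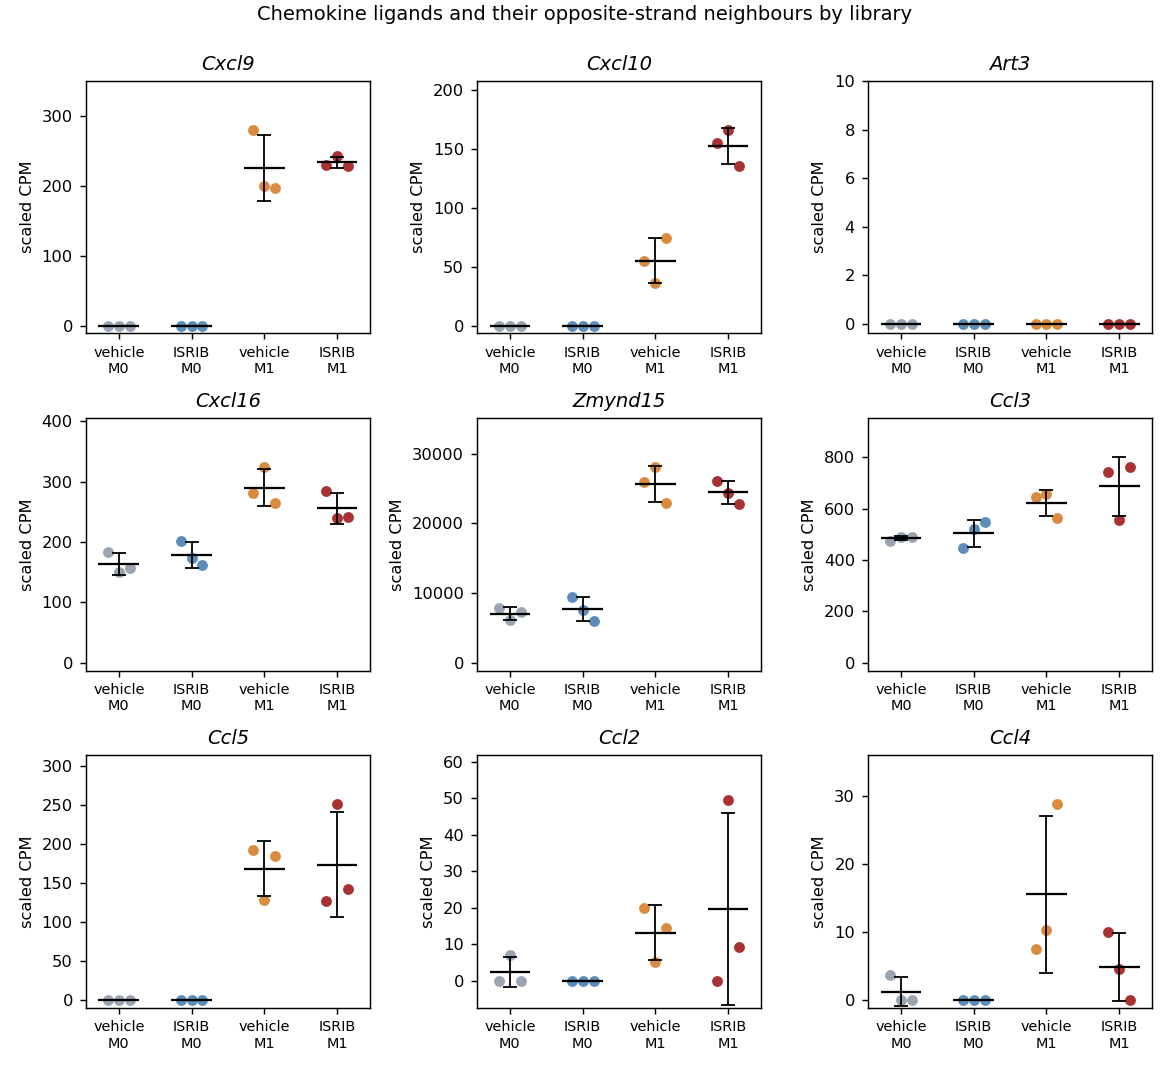
Level in CPM scaled by TMM (y axes, a separate scale per gene) for each of the 9 genes, with a point per library, the group mean as a line and its SD as a bar (n = 3). Cxcl9, Cxcl10 and Ccl5 are at 0 in all M0 libraries, and Cxcl10 is the gene whose ISRIB M1 libraries (136 to 166 CPM) lie above all its vehicle M1 libraries (35.98 to 74.5 CPM).

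The question of the series is whether the integrated stress response shapes macrophage inflammation, and its direct comparison is ISRIB against vehicle in M1 cells. Here 0 of the 6 tested members passed the threshold, and 0 of the 2356 tested genes did (0.0%), by edgeR with Benjamini-Hochberg adjustment. At an unadjusted p under 0.05 there were 134 genes, 5.69% of those tested, and 1 of the 6 members, Cxcl10. DESeq2 and limma-voom also called 0 genes, with 138 and 119 at an unadjusted p under 0.05. The median log2 fold change of the 6 members was 0.05, against 0.00 over all tested genes (-0.0045 before rounding).

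Of the 6 tested members, Cxcl10 differed most between ISRIB and vehicle in M1. Its vehicle M1 libraries were at 55.1, 35.98 and 74.5 CPM and its ISRIB M1 libraries at 155, 166 and 136. All ISRIB libraries were above all vehicle libraries, as were those of 5.39% of all tested genes. The means were 55.2 ± 19.3 and 152.3 ± 15.3 CPM (SD, n = 3), a ratio of 2.76. On the log2 scale the fitted difference was 1.46 ± 0.45 (SE), with a 95% interval of 0.53 to 2.39. Its unadjusted p of 0.00381 was the 8th lowest of the 2350 genes with a count in these groups, and its adjusted p in edgeR's test was 0.806.

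Cxcl10 missed the threshold and kept its direction under every setting tried. Over the fit to all data and 22 alternatives in which it could be tested, the log2 fold change lay between 1.23 and 1.73 and the adjusted p between 0.362 and 0.964. Art3 added no counts, so the total of the pair gave the same values, with p = 0.1 in an exact permutation test (two-sided, n = 3 per group), the smallest it can give. The number of Cxcl10 counts per Cxcl9 count in the same library, a ratio chosen after the values were seen, was 0.196, 0.179 and 0.378 in M1 with vehicle and 0.674, 0.685 and 0.592 with ISRIB. These ratios did not overlap, with p = 0.1 in the same exact permutation test. They use the same Cxcl10 counts, so they are no separate evidence of a difference in Cxcl10.

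The other 5 tested members differed less between ISRIB M1 and vehicle M1. The log2 fold change was 0.05 ± 0.28 for Cxcl9 (95% interval -0.53 to 0.63) and 0.04 ± 0.35 for Ccl5 (-0.69 to 0.78). It was 0.14 ± 0.15 for Ccl3 (-0.17 to 0.46). It was -0.07 ± 0.12 for Zmynd15 (-0.32 to 0.18) and -0.18 ± 0.20 for Cxcl16 (-0.60 to 0.24). The untested Ccl4 and Ccl2 had ratios of ISRIB to vehicle means of 0.311 and 1.48, on 6 against 19 and 26 against 16 counts in all. In the fit without a filter these were -1.65 ± 1.59 and 0.59 ± 1.20 on the log2 scale (edgeR adjusted p 0.858 and 1). Vehicle and ISRIB libraries overlapped for the 5 tested genes, and their adjusted p-values in edgeR's test were 0.976 to 0.996. The widest of these intervals, that of Ccl5, reached 0.78 on the log2 scale. Without replicate 2 of vehicle M1 the sign changed for Cxcl9 (-0.03), Ccl5 (-0.12) and Zmynd15 (0.0045). It also changed for Cxcl9 without replicate 3 of vehicle M1 (-0.04) and for Ccl5 without replicate 2 of ISRIB M1 (-0.31).

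**Figure D4:**
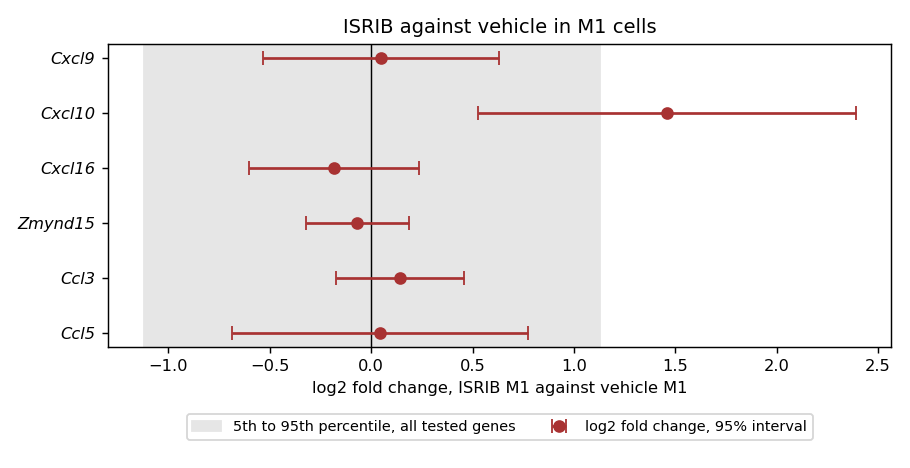
Log2 fold change of ISRIB M1 against vehicle M1 (x axis) for the 6 tested members, with 95% intervals, over a band from the 5th to the 95th percentile of all tested genes (-1.12 to 1.13). Cxcl10, at 1.46, lies outside the band and the other 5 lie within it.

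The pair of Cxcl16 and Zmynd15 was also compared as a sum, which does not depend on which of the 2 symbols a counted read was given. Zmynd15 supplied nearly all of this sum, for example 10340 of 10452 counts in replicate 1 of vehicle M1. The sum therefore mainly repeats the comparison of Zmynd15 and says little of Cxcl16. The sum was 25912 ± 2639 CPM in vehicle M1 and 24694 ± 1683 in ISRIB M1, and the groups overlapped (exact permutation p = 0.6, two-sided, n = 3 per group). Without replicate 2 of vehicle M1 the difference changed sign, from -1218 to 30.8 CPM. The share of Cxcl16 was 1.12% ± 0.0401 in vehicle M1 and 1.03% ± 0.0525 in ISRIB M1, also overlapping (exact permutation p = 0.2).

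In M0 cells ISRIB and vehicle could be compared for the 3 tested members with counts there, while Ccl2 and Ccl4 had too few counts to test. The log2 fold change was 0.12 ± 0.12 for Zmynd15, 0.13 ± 0.21 for Cxcl16 and 0.06 ± 0.15 for Ccl3, with edgeR adjusted p-values of 0.998 to 1. The count of members called was 0 of 3, and over all genes it was 0 of 2356 (0.0%) by edgeR, with 143 at an unadjusted p under 0.05 (6.07%), while DESeq2 called 3 and limma-voom 1. The interaction of ISRIB with polarization was -0.19 ± 0.17 for Zmynd15 and -0.31 ± 0.29 for Cxcl16, with edgeR adjusted p-values of 0.901 and 0.903. Again 0 of all tested genes were called (0.0%), and 167 (7.09%) were under 0.05 before adjustment. For Cxcl9, Cxcl10 and Ccl5 there is no estimate in M0 or of the interaction, since all M0 libraries were at 0. The comparisons share groups, so their values are not independent of each other.

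Levels were compared between genes per kilobase of exon, as CPM per kb. Since the strand of the counts was not tested, the bases that gave a symbol's counts are not known. The order below therefore describes symbols and their full exon length, not levels of transcripts. The exon length joins all annotated transcripts. For Cxcl10 it equals the whole span of 2252 bases in 1 block, and for Cxcl9 it is 3016 of 6733 bases in 4 blocks. The place of Cxcl10 beside Cxcl9 depends on these lengths. In vehicle M1 the order was Zmynd15 (5811 ± 592 CPM per kb), Ccl3 (811 ± 64.2), Ccl5 (176 ± 36.6), Cxcl16 (95.9 ± 10.2), Cxcl9 (74.9 ± 15.6), Cxcl10 (24.5 ± 8.56), Ccl4 (23.6 ± 17.6), Ccl2 (11.6 ± 6.61) and Art3 at 0. The libraries of Cxcl16 and Cxcl9 overlapped, as did those of Cxcl10 with Ccl4 and those of Ccl4 with Ccl2. In ISRIB M1 the order was the same down to Cxcl10, which stood at 67.6 ± 6.80 CPM per kb, just under Cxcl9 at 77.6 ± 2.44, and Ccl2 then came before Ccl4. In vehicle M0 only Zmynd15 (1604 ± 198), Ccl3 (633 ± 12.1) and Cxcl16 (54.0 ± 5.86) were above 2.10 CPM per kb, the level of Ccl2.

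The genes whose pattern over the 12 libraries was most like a member's, by Pearson correlation of log2 CPM, are a description that the M0 to M1 difference largely sets. For Cxcl10 they were Oasl1 (r = 0.995), Ifit1 (0.991) and Lgals9 (0.990), the former pair being interferon-stimulated antiviral genes. For Cxcl9 they were Med7, Tnfrsf8 and AV051173 (0.997 to 0.999), and for Ccl5 they were Cxcl9 (0.996), Med7 and Ms4a6d. Zmynd15 was nearest to Gm14023 (0.993), E230013L22Rik and Fam166a, and Cxcl16 to Zbtb22 (0.972), Myo1h and 9130221H12Rik. All 6 of these have an exon overlap on the opposite strand, as have Zmynd15, Cxcl16, Oasl1 and Med7, while Ifit1, Lgals9, Tnfrsf8 and Ms4a6d have none. Symbols with such an overlap held 92.3% of counts on matched symbols. They also held 5906 of the library values of 100 counts or more, against 540 on symbols without it. The share among tested genes was not computed, so the overlap is not shown to be particular to these matches. Ccl3 had the lowest best match, Cacfd1 at 0.916. Zmynd15 and Cxcl16 themselves had r = 0.963.

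The means of Oasl1, Ifit1 and Lgals9 were also above those of vehicle M1 in ISRIB M1, by differing amounts. Oasl1 was at 22.3 CPM in vehicle M1 and 74.6 in ISRIB M1, a log2 fold change of 1.73. Ifit1 was at 59.8 and 132.5 CPM, a log2 fold change of 1.14. Lgals9 was at 29.01 and 44.6 CPM, or 0.62 on the log2 scale. None of the 3 passed, with unadjusted p-values of 0.0171, 0.0195 and 0.425 and edgeR adjusted p-values of 0.806, 0.806 and 0.976. Since they were picked by their likeness to Cxcl10 over these libraries they are no separate evidence.

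The rest of the chemokine system had few counts, and the ligands named here were picked after their counts were seen. Of 31 other chemokine ligands, 18 had a count in any library, 0 passed the filter, and the highest count was 18, for Ccl6 in a vehicle M0 library. Ccl6 had 18, 4 and 4 counts in vehicle M0, 2, 6 and 2 in ISRIB M0 and 0 in every M1 library. Cxcl11, the third ligand of Cxcr3, is typed as a polymorphic pseudogene in the annotation and had at most 4 counts. Ccl7 and Ccl12, the neighbours of Ccl2, had at most 6 and 2 and none in M0. Cxcl17 lies within the span of the antisense gene 4732471J01Rik, which had a mean of 948 counts with no shared exon base, while Cxcl17 itself had 1 count.

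Of 10 receptors and decoy receptors of these ligands, Ackr4 alone passed the filter, a scavenging receptor for other CC chemokines. Ackr4 has an exon overlap on the opposite strand, and which strand's transcript gave its counts was not tested. Between M0 and M1 it differed by -1.01 ± 0.35 on the log2 scale with vehicle (edgeR adjusted p 0.0205, lower in M1) and by -0.32 ± 0.35 with ISRIB (edgeR adjusted p 0.487). The interaction was 0.69 ± 0.49 (edgeR adjusted p 0.813). Cxcr3, Cxcr6, Ccr1 and Ccr2 could not be tested.

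Of 25 genes of LPS and interferon signalling, 8 were tested. Among those named below, Nfkb2 and Irf7 have an exon overlap on the opposite strand and Stat2 has none. Which strand's transcript gave their counts was not tested. With vehicle 6 were called higher and 0 lower in M1, where 24.3% of all tested genes were called higher and 20.5% lower. With ISRIB 5 were called higher and 0 lower, where the shares over all tested genes were 23.9% and 20.9%. The fitted log2 fold changes of the 8 had a median of 3.48 with vehicle and 3.61 with ISRIB, or 2.36 and 3.09 with 1 gene at 0 in M0 set to its lower bound in each. Nfkb2, an NF-κB subunit, differed by 0.88 ± 0.19 on the log2 scale with vehicle (edgeR adjusted p 0.000529) and by 0.29 ± 0.19 with ISRIB (0.227), with an interaction of -0.59 ± 0.27 (edgeR adjusted p 0.684). Irf7, a transcription factor of interferon genes, rose by 4.68 ± 0.64 and 5.11 ± 0.67 on the log2 scale, and Stat2 by 5.16 ± 0.95 and 4.62 ± 0.86. The edgeR adjusted p-values of Irf7 and Stat2 were 9.55e-05 or lower with either treatment. ISRIB against vehicle in M1 called 0 of the 8, and their median was 0.03 on the log2 scale. It was 0.34 ± 0.64 for Stat2, -0.0044 ± 0.46 for Irf7 and -0.21 ± 0.19 for Nfkb2.

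Of 7 proteases known to shed or cut chemokines, 3 were tested. Adam17 and Furin have an exon overlap on the opposite strand and Mmp14 has none. Which strand's transcript gave their counts was not tested. Adam17, a sheddase, was lower in M1 with vehicle, by -0.64 ± 0.22 on the log2 scale (edgeR adjusted p 0.0178), and its value with ISRIB was -0.36 ± 0.22 (0.182). Mmp14 was higher in both treatments (3.33 ± 1.15 and 2.97 ± 1.05, adjusted p 0.0208 and 0.0238 by edgeR). Its M0 levels were low, at 2.47 ± 4.28 CPM with vehicle and 5.37 ± 6.42 with ISRIB. In M1 they were 27.5 ± 5.10 and 42.7 ± 35.8 CPM. Furin was called higher with ISRIB (2.02 ± 0.71, edgeR adjusted p 0.0229), and its value with vehicle was 1.22 ± 0.69 (0.156). The interactions of Adam17, Mmp14 and Furin had edgeR adjusted p-values of 0.931 to 0.985. Adam10, which sheds Cxcl16, did not pass the filter.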

How the data were processed

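RNA sequencing of 12 libraries in 4 groups was used, grouped and numbered by the sample titles. The authors deposited raw counts for each gene symbol, as whole numbers, along with log2 normalized values. The deposited log2 values equal the log2 of 1 plus a count after division by the library's size factor, as found from the values. Per the submitters' processing notes the build was mm10 and FastQC, HTSeq and DESeq2 were used. The aligner, the annotation and the strand setting are not given in the sources used here.

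The counts as deposited were tested with edgeR 4.0.16 (R 4.3.3). The filter filterByExpr (minimum count 10, minimum total 15) left 2356 genes, which held 97.6% of all counts, and TMM scaled the libraries. A mean per group was fitted to all 12 samples, and 5 contrasts were taken by the quasi-likelihood test at a Benjamini-Hochberg adjusted p of 0.05. The procedure was tested on simulated data. Standard errors and 95% intervals follow from the test statistic. Alternatives were DESeq2 1.42.0, limma 3.58.1, other scalings, filters and samples, the replicate block and summed pairs. Counts halved and rounded up were added after the data were seen. Named are all members, neighbours on the opposite strand averaging 10 or more counts, listed genes that passed in an ISRIB contrast with up to 4 others by mean count, and the 3 genes most like each member, except that some listed genes are not reported here. Members and lists were chosen with earlier results of these data known.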

Additional observations from a re-analysis of the deposited data

How the results depend on the processing

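Members called in ISRIB against vehicle in M1 or M0, or in the interaction, numbered 0 under every setting run, leave-one-out fits included. With only genes of a mean of at least 50 counts, 3 members could be tested and 3 were called in M1 against M0 in vehicle and 3 in ISRIB, against 5 and 6 of 6 tested, and 530 and 523 genes were called in place of 1055 in each. Leaving out single libraries gave 5 to 6 members called in vehicle and 4 to 6 in ISRIB, and 963 to 1109 and 937 to 1099 genes. For ISRIB against vehicle in M0, where 0 genes were called, DESeq2's Wald test called 3, limma-voom 1 and no filter 10, and leaving out libraries 0 to 6. In M1 leaving out libraries gave 0 to 1 genes. In the interaction no filter gave 9, the replicate block 3, and leaving out libraries 0 to 4. The causes were not tested, except that filters change the number of genes tested.

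Log2 fold changes of ISRIB against vehicle in M1 without a single library ran from -0.31 to 0.22 for Ccl5, -0.042 to 0.23 for Cxcl9 and -0.15 to 0.0045 for Zmynd15, and that of Zmynd15 in M0 from -0.044 to 0.28. The interaction of Ccl3 ran from -0.0098 to 0.22. Ccl5 in M1 was also reversed with limma on the deposited log2 values (-0.0015) and with the replicate block (-0.00097), each with an adjusted p of 1. The pair total of Cxcl16 plus Zmynd15 ran from -2598 to 30.8 CPM.

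Deviations of same-numbered samples had correlations from -0.0600 to 0.113, not over 0.1 in every pair of any comparison, so the numbers were not taken as pairs. The library numbers in the labels run in 3 sets, 1 for each replicate number, and the labels do not say what a set shared. As a hint from the data, all 6 samples correlated best with their own number in ISRIB against vehicle in M0 and in M1 against M0 in ISRIB, and 2 of 6 in the other comparisons. The replicate block changed no member's call.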

Other observations

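Even counts were more frequent than odd ones. Of 62353 non-zero counts over all symbols and libraries 61.3% were even, 67.6% on symbols without an opposite-strand exon overlap and 55.1% on symbols with such an overlap. Between 10 and 99 counts the shares were 64.2% and 53.0%, and at 100 counts or more they were 47.4% and 50.2%. All 6 non-zero counts of Cxcl9 were even, as were all 6 of Ccl2, 5 of 6 of Cxcl10 and 5 of 6 of Ccl4, but 2 of 6 of Ccl5 and 7 of 12 of Zmynd15. The reason for the excess was not tested. With counts halved and rounded up, 0 members were called for ISRIB in M1, as with the counts as deposited.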
